A study of Mus musculus with 4 samples.

Results

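The 10 genes described here encode the MHC class II antigen presentation machinery of the mouse: H2-Aa, H2-Ab1, H2-Eb1, Cd74, Ciita, H2-DMa, H2-DMb1, H2-DMb2, H2-Oa and H2-Ob. They were chosen by name from the 32285 genes counted, and all 10 were measured. The data were single-cell RNA counts from bone marrow of 6 female mice, 6 weeks old, with n = 2 mice for each of 3 treatments. All mice were Tppp3CreER LSLTdTomato: a tamoxifen-dependent Cre recombinase is driven from Tppp3, and Cre activity switches on the red reporter tdTomato. Tamoxifen mice received tamoxifen on postnatal days 0 and 3, and tamoxifen+rapamycin mice received both agents on those days. Late rapamycin mice received only rapamycin, on postnatal day 30, so they differ from tamoxifen mice in 2 agents and in the time of injection. No untreated mice were analysed here. Rapamycin inhibits the kinase complex mTORC1. Per the labels, the cells came from lineage-negative Sca+ Kit+, lineage-negative Sca- Kit+ and whole bone marrow fractions, so the share of a cell type is set by the sort and is not compared here. On each of 2 processing days, 1 mouse per treatment was processed: hashtag antibodies marked the cells of each mouse, and the 3 mice then shared a droplet run.

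MHC class II molecules present peptides from endosomes to CD4+ T cells. An alpha and a beta chain assemble with the invariant chain, which fills the groove and guides the complex to endosomes, where a DM heterodimer exchanges the remaining invariant chain fragment for peptides and DO restrains DM. Dendritic cells, B cells and activated monocytes or macrophages are the classical presenting cells, and the transactivator CIITA, recruited by factors bound to the X and Y boxes of class II promoters, switches the genes on together. Class II genes have also been described in hematopoietic stem cells.

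The promoters of several members carry the paired boxes, and their core letters are printed to show what these genes share. Of the 10 members, 7 had an entry in the RefSeq promoter table (GRCm38.p6), which runs from 250 bases before to 50 after a gene start. In 5 of these, H2-Aa, H2-Eb1, H2-Ob, H2-Oa and H2-DMb1, GNAAC was followed by ATTGG with starts 28 to 35 bases apart. Among all 32851 promoter windows, read on both strands, 367 (1.12%) held this pair, while ATTGG alone stood in 33.8% and GNAAC alone in 79.6%. No pair was found in the windows of H2-DMa and H2-DMb2. The letters and the spacing were chosen after the sequences had been seen. Each line below is written 5′ to 3′ in the direction of transcription, with capitals for GNAAC, the core of the X box, and ATTGG, the core of the Y box; H2-Eb2 is a related class II gene that is not a member.
H2-Aa, chr17:34287859-34287912, minus strand: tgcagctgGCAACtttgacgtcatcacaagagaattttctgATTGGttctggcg
H2-Eb1, chr17:34305768-34305820, plus strand: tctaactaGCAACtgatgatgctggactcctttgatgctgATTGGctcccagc
H2-Ob, chr17:34238810-34238860, plus strand: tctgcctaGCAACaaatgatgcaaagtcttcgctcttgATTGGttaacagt
H2-Eb2, chr17:34325535-34325587, plus strand: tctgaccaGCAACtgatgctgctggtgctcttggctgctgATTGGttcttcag

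In H2-Aa the capitals begin 81 and 48 bases before the start site, in H2-Eb1 91 and 59, and in H2-Ob 87 and 57, so the starts of the boxes lie 33, 32 and 30 bases apart. Of the members, 8 lie together on chromosome 17 between 34092340 and 34316674 in the GRCm38 annotation. Ciita lies on chromosome 16 (10480059 to 10528418) and Cd74 on chromosome 18 (60803848 to 60812652). H2-DMb1 and H2-DMb2 are neighbouring near-copies that share 369 windows of 50 bases, or 22.7% of the windows of the first and 21.2% of those of the second, so a part of their counts may be split between them. H2-Eb1, Ciita, H2-Oa and H2-DMa overlap genes on the other strand (Gm20513, Dexi and BC051537 for the first 3, and Brd2, CR974462.4 and Gm20493 for H2-DMa). On their own strand H2-DMa overlaps CR974462.3 and Cd74 overlaps Mir5107. Their counts are uncertain to that extent, and whether counting used strand is not given in the sources used here.

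After filtering, 34603 cells remained, with 5537 to 6439 per mouse and a median of 2947.5 to 4482 UMIs (unique molecular identifiers, which count captured transcripts) per cell. Late rapamycin cells were the deepest on both days. The runs shared 126 cell barcodes, which were kept as separate cells. Cells were gated by counting distinct markers of a cell type, and no member served as a marker. The stem cell gate (at least 5 of 12 markers, no more than 2 of 6 of the Flt3 progenitors) held 2675 cells. Flt3 progenitors numbered 3800, B cell precursors 1450, mature B cells 1038, monocytes 1246, plasmacytoid dendritic cells 236 and conventional dendritic cells 48. Neutrophil progenitors (2050), neutrophils (4474), erythroid progenitors (3662) and megakaryocyte progenitors (319) served as lineages not known for class II. The marker numbers required were set after the marker counts had been seen, and 13351 cells passed no gate. Treatments follow the deposited hashtag table. The sample labels number the tamoxifen mice 1 and 4, whereas the table gives hashtags 1 and 4 to tamoxifen+rapamycin, so the names of the 2 tamoxifen treatments would swap throughout if the labels meant hashtags. The table calls hashtags 3 and 6 controls. Because the sample labels give the numbers 3 and 6 to late rapamycin, these mice were taken to be that treatment, and every late rapamycin value rests on this reading.

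Mature B cells and dendritic cells carried the highest levels of the classical chains, monocytes followed, and stem cells were a low but clear step above erythroid cells and neutrophils. Levels are UMIs of a gene scaled to the same total of UMIs in every gate and mouse (CPM), given as mean ± SD over n = 6 mice, and are compared between gates for each gene but not between genes. H2-Aa, an alpha chain, stood at 2354 ± 735 CPM in conventional dendritic cells, 877 ± 241 in mature B cells, 332 ± 144 in plasmacytoid dendritic cells and 181 ± 72.4 in monocytes. It fell to 39.6 ± 22.7 CPM in B cell precursors, 31.5 ± 15.2 in stem cells and 10.6 ± 4.42 in Flt3 progenitors. Conventional dendritic cells and mature B cells each lay apart from the next gate in every mouse, plasmacytoid dendritic cells overlapped monocytes, and B cell precursors overlapped stem cells. Megakaryocyte progenitors, neutrophils, neutrophil progenitors and erythroid progenitors lay at 3.35, 1.37, 1.09 and 0.474 CPM. H2-Eb1, a beta chain, followed the same order at the top, with 1636, 650.0 ± 173, 162 ± 93.8 and 117.5 ± 62.9 CPM, and stood at 18.4 CPM in stem cells.

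H2-Ab1, the beta chain that pairs with H2-Aa, had a different floor. It measured 641 ± 177 CPM in mature B cells and 33.9 ± 12.8 in stem cells. Yet erythroid progenitors held 14.4 ± 2.55 CPM (11.8 to 18.0), neutrophil progenitors 24.6 and megakaryocyte progenitors 17.1, while neutrophils held 1.43. Erythroid and neutrophil progenitors, where H2-Aa was close to 0, thus held H2-Ab1 in every mouse, at 11.8 CPM or more. Cd74, the invariant chain, was at 6319 CPM in conventional dendritic cells and 5245 ± 707 in mature B cells, whose ranges overlapped. It was at 965 ± 581 in plasmacytoid dendritic cells, 599 ± 276 in monocytes, 69.0 ± 49.4 in B cell precursors, 51.0 ± 18.7 in stem cells and 16.9 ± 6.43 in Flt3 progenitors. The 4 lineages not known for class II lay between 1.30 and 2.91 CPM.

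**Figure D1:**
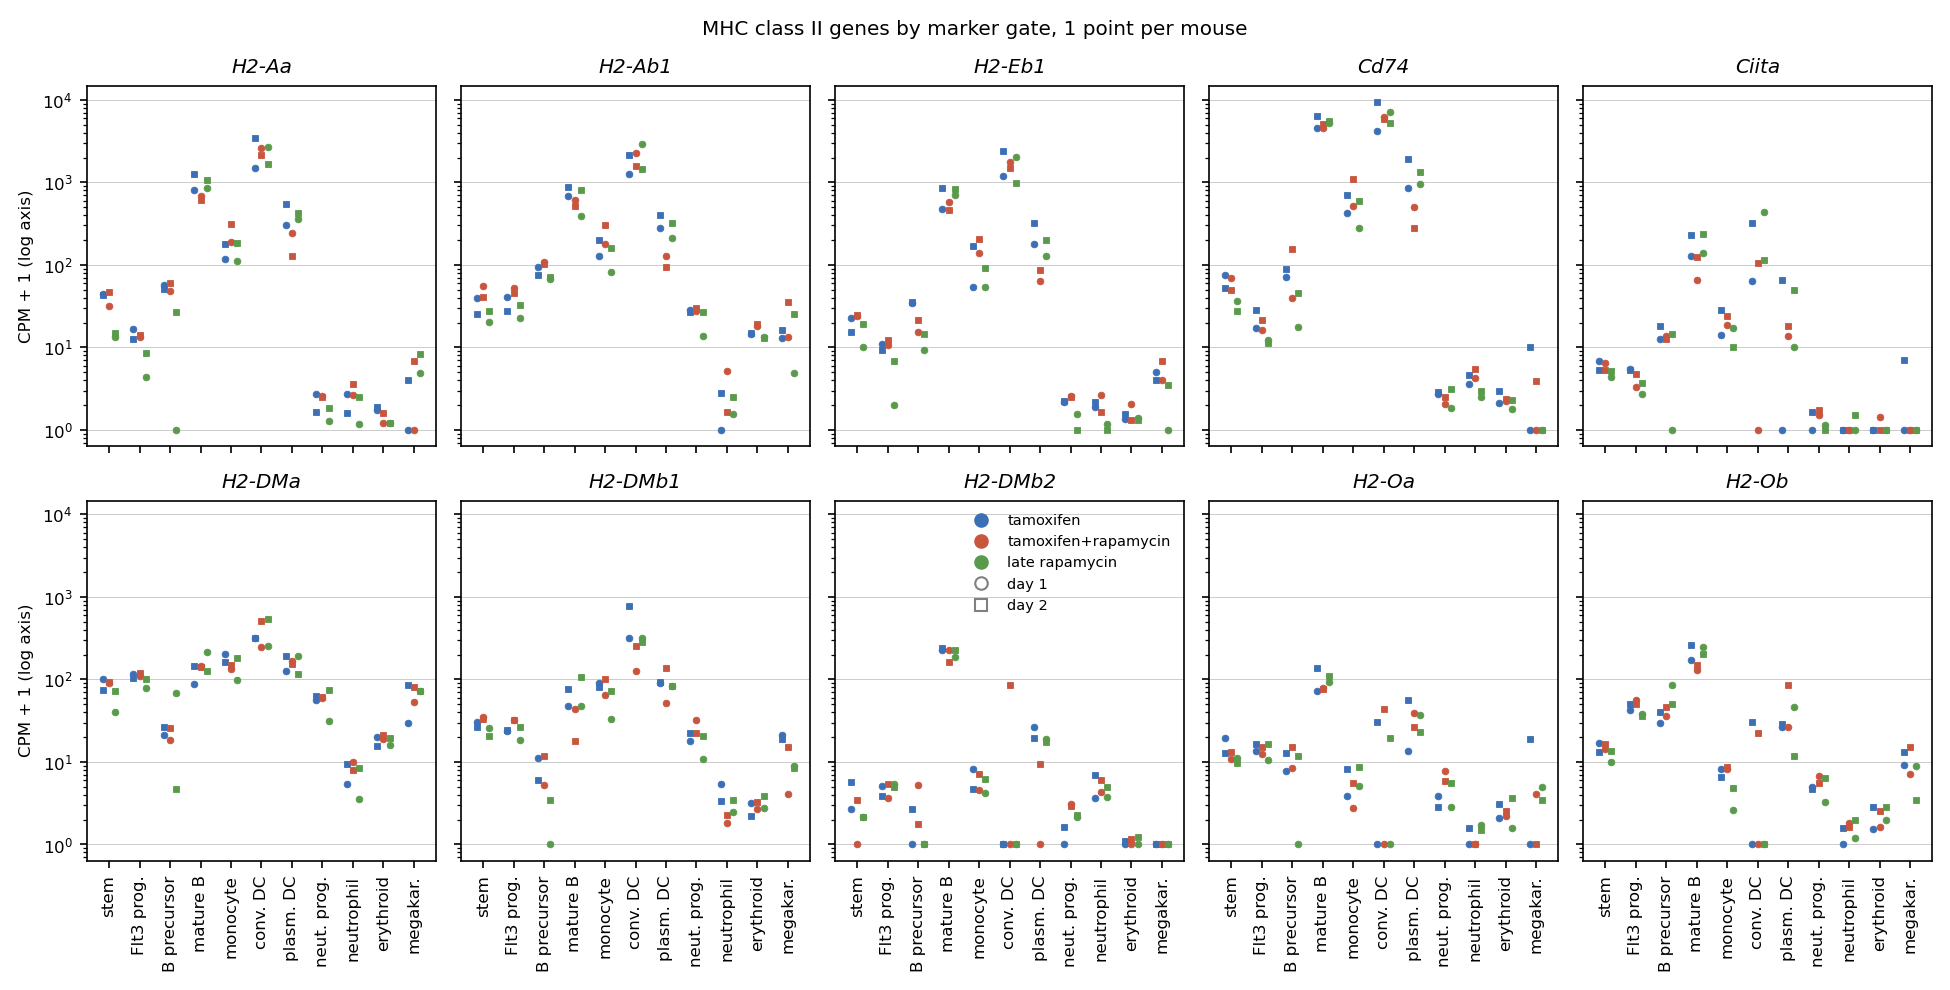
Level of each of the 10 members in 11 gates, as CPM plus 1 on a log axis, with 1 point per mouse, coloured by treatment and shaped by processing day. The 4 gates of presenting cells stand highest for H2-Aa, H2-Eb1 and Cd74, H2-DMb2 is high in mature B cells (210.5 ± 30.1 CPM), and H2-DMa is counted in all gates.

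The means of Ciita, the transactivator, ranked these gates like those of H2-Aa and Cd74. They were 173 ± 169 CPM in conventional dendritic cells, 153.5 ± 68.0 in mature B cells and 25.3 ± 25.3 in plasmacytoid dendritic cells. Monocytes held 17.7, B cell precursors 11.1 and stem cells 4.57 ± 0.906 CPM. The conventional dendritic value rested on 30 UMIs, ran from 0 to 438 CPM over the mice and overlapped mature B cells. Erythroid progenitors, neutrophils, neutrophil progenitors and megakaryocyte progenitors were at or below 1.00 CPM. The DM chains, which load peptides, were spread more evenly. H2-DMa measured 364 CPM in conventional dendritic cells, 157 in plasmacytoid dendritic cells, 154 in monocytes, 143 in mature B cells, 104 in Flt3 progenitors and 77.5 in stem cells, and still 17.5 in erythroid progenitors. H2-DMb1 ran from 345 CPM in conventional dendritic cells to 55.6 in mature B cells and 27.5 in stem cells. Its near-copy H2-DMb2 was at 210.5 ± 30.1 CPM in mature B cells and at 14.4 in plasmacytoid dendritic cells, 14.1 in conventional dendritic cells and 4.83 in monocytes, with no overlap between mature B cells and any other gate described here. The DO chains, which restrain DM, were likewise highest in mature B cells without overlap among these gates: H2-Oa 93.4 CPM against 31.5 in plasmacytoid dendritic cells, and H2-Ob 193 against 46.8 in B cell precursors and 44.8 in Flt3 progenitors. In 46 basophil and mast cells, too few to test, H2-Ob ran from 0 to 160.1 CPM over the mice and overlapped mature B cells (128.7 to 257.4).

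The conventional dendritic gate had 3 to 13 cells per mouse and was not tested. Pooled over mice, its 48 cells gave 6323 CPM of Cd74 (exact 95% Poisson interval 5956 to 6707) and 2279 CPM of H2-Aa (2061 to 2514), intervals that cover counting error only. Of these cells, 32 had an H2-Aa UMI. H2-Oa and H2-DMb2 rested on 4 UMIs each there and H2-Ob on 2.

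Contrasts between gates were tested within mice with edgeR's quasi-likelihood test, with P values adjusted by Benjamini-Hochberg over all genes and a threshold of 0.05. In mature B cells all 10 members were higher than in stem cells, against 25.2% of all genes tested; the differences ran from 0.92 (H2-DMa) to 6.87 (Cd74) on the log2 scale, with a median of 4.7. In monocytes and in plasmacytoid dendritic cells all 6 members tested were higher (background 31.2% and 14.9%), namely the 3 classical chains, Cd74, H2-DMa and H2-DMb1. Cd74 led both, by 3.78 and 4.32 on the log2 scale, and H2-Aa followed in plasmacytoid dendritic cells, by 3.56. The other 4 members had too few counts in either gate to be tested. In plasmacytoid dendritic cells the means of all 4 stood above those of stem cells. These were Ciita (25.3 against 4.57 CPM), H2-DMb2 (14.4 against 1.85), H2-Oa (31.5 against 11.82) and H2-Ob (36.5 against 13.03). In monocytes the 4 did not all point the same way. There H2-Oa (4.73 CPM) and H2-Ob (5.495) stood below their stem cell levels (11.82 and 13.03). Ciita (17.7 against 4.57) and H2-DMb2 (4.83 against 1.85) stood above.

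Stem cells stood above erythroid progenitors and neutrophils for every member tested. In erythroid progenitors 9 of 9 members were lower than in stem cells (background 42.9%), with H2-Aa at −5.54, Ciita at −5.50 and H2-Ab1 at −0.82 on the log2 scale. In neutrophils 8 of 8 were lower (background 46.5%). Of the members not tested there, H2-DMb2 stood higher in neutrophils (3.96 against 1.85 CPM) and Ciita lower (0.0833 against 4.57). Against the stem gate, Flt3 progenitors, the multipotent progenitors next to stem cells, moved in both directions among 9 members tested. H2-Ob and H2-DMa were higher in them, by 1.81 and 0.50 (background 22% higher). H2-Aa, Cd74 and H2-Eb1 were lower, at −1.52, −1.46 and −1.17 (background 21.1% lower).

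B cell precursors differed from stem cells in a similar mixed way, with 4 of 8 members higher (background 29.9%) and 2 lower (background 33.9%). H2-Ob was higher by 1.78, H2-Ab1 by 1.43, Cd74 by 0.67 and H2-Aa by 0.52, while H2-DMb1 and H2-DMa were lower, at −2.02 and −1.96. From B cell precursors to mature B cells, all 9 members tested were higher (background 25.4%), led by H2-DMb2 at 6.90, Cd74 at 6.18 and H2-Eb1 at 4.85. H2-Eb2, the only class II relative among the features, was too low to test. It measured 17.3 CPM on average in mature B cells (7.15 to 32.2) and at most 0.433 in stem cells.

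Mature B cells made up 3% of the cells and held 51.4% of all Cd74 UMIs, 44.8% of those of H2-DMb2 and 34.8% of those of Ciita, and free RNA from B cells can enter droplets of other cells. B cell tracers, 11 genes of the B cell receptor and the B cell lineage, were therefore read in the same cells. Free RNA from 1 source keeps its genes in 1 ratio, here taken to Igkc, the kappa light chain. In mature B cells there were 0.106 H2-Aa UMIs per Igkc UMI on day 1 and 0.128 on day 2. In stem cells there were 1.72 and 3.25, in monocytes 9.44 and 19.3, in plasmacytoid dendritic cells 6.39 and 7.19, in erythroid progenitors 0.041 and 0.088 and in neutrophils 0.048 and 0.123. The erythroid and neutrophil ratios thus lay below that of mature B cells on the same day, and those of stem cells, monocytes and plasmacytoid dendritic cells more than 10 times above it.

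**Figure D2:**
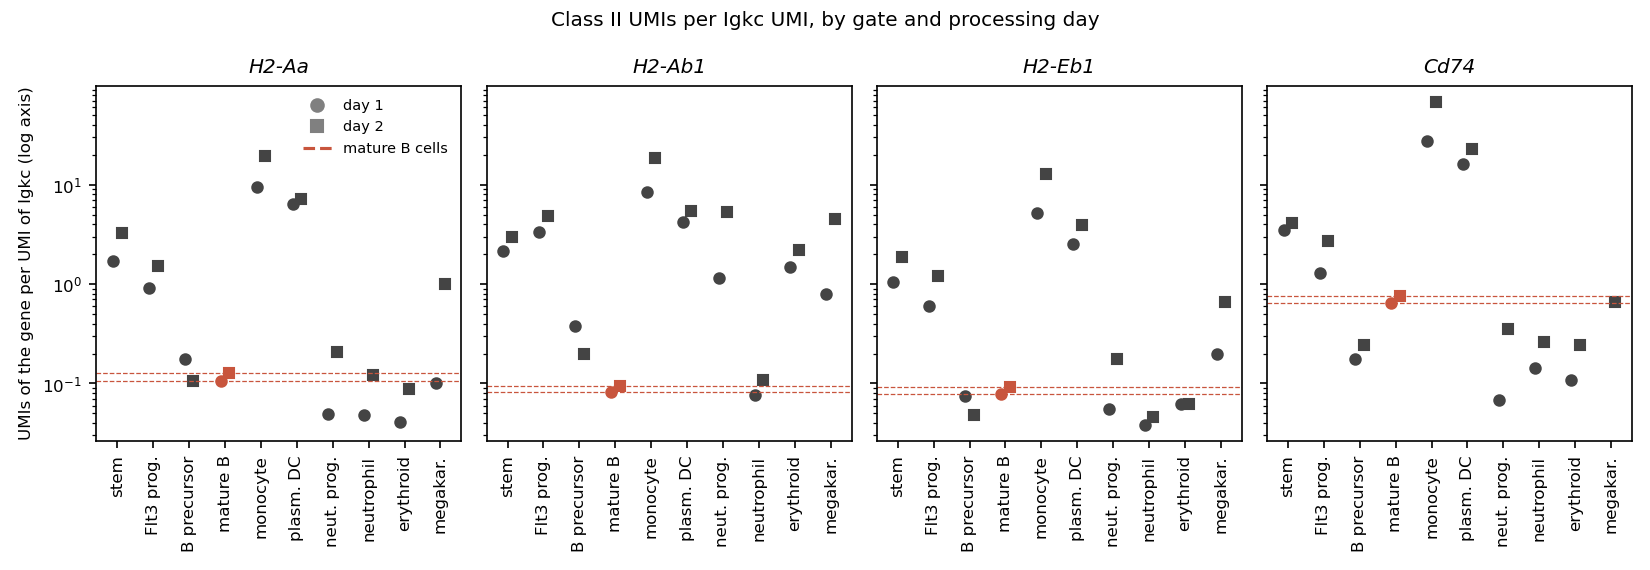
UMIs of H2-Aa, H2-Ab1, H2-Eb1 and Cd74 per Igkc UMI in 10 gates on a log axis, with 1 point per processing day and dashed lines at the 2 values of mature B cells; 1 point at a ratio of 0 (Cd74 in megakaryocyte progenitors on day 1) cannot be drawn. For H2-Aa, stem cells (1.72 and 3.25) and monocytes lie far above mature B cells (0.106 and 0.128), while erythroid progenitors and neutrophils do not.

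Had all Igkc UMIs in a gate come with B cell RNA of that ratio, they would have brought 6.14 of the 150 H2-Aa UMIs in stem cells of tamoxifen mice (4.09%), 2.89 of 104 (2.78%) under tamoxifen+rapamycin and 4.86 of 48 (10.1%) under late rapamycin. For Cd74 the shares were higher: 37.2 of 209 UMIs (17.8%), 17.3 of 143 (12.1%) and 29.0 of 102 (28.4%). In Flt3 progenitors they came to 22.5%, 38.9% and 62.4% of the Cd74 UMIs and 6.02%, 9.35% and 21.2% of those of H2-Aa. In erythroid progenitors of tamoxifen mice the same ratio gave 11.7 H2-Aa UMIs against 12 counted and 70.6 Cd74 UMIs against 24 counted. Under tamoxifen+rapamycin and late rapamycin it gave 10.7 against 5 and 13.4 against 3 H2-Aa UMIs there. It gave 8.88 of the 198 H2-Ab1 UMIs counted in erythroid progenitors of tamoxifen mice (4.48%).

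Taken to Cd79a, a subunit of the B cell receptor, the shares were lower. They came to 0.831%, 1.14% and 0.907% of the H2-Aa UMIs and 3.57%, 5.03% and 2.52% of the Cd74 UMIs in stem cells under tamoxifen, tamoxifen+rapamycin and late rapamycin. In Flt3 progenitors they came to 10.2%, 11.8% and 16.97% of the Cd74 UMIs. In erythroid progenitors of tamoxifen mice Cd79a gave 4.43 H2-Aa UMIs against 12 counted and 26.7 Cd74 UMIs against 24 counted. There were 0.429 and 0.667 H2-Aa UMIs per Cd79a UMI in erythroid progenitors, above the 0.375 and 0.435 of mature B cells, whereas the Igkc ratio lay below. The Cd79a values rest on few UMIs: 3, 3 and 1 in stem cells, 5, 6 and 4 in Flt3 progenitors and 11, 13 and 11 in erythroid progenitors.

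Most other B cell transcripts were scarce in the stem gate. Igkc ranged from 8.65 to 28.3 CPM over the mice (118 UMIs in all), highest in tamoxifen mouse 1, Cd79a had 7 UMIs and Ms4a1 had 1, but Cd79b stood at 19.3 to 27.3 CPM in every mouse. The summed tracers came to 44.5 to 79.9 CPM, again highest in tamoxifen mouse 1, against 18840 to 23220 in mature B cells. Shares of member UMIs were worked out for Igkc and Cd79a only. Cd79b had 220 UMIs in the stem gate against 2674 in mature B cells, and Ighm 137 against 6109. Igkc had 118 against 11053, so shares taken to Cd79b or Ighm would be higher than those given. Whether the Cd79b and Ighm UMIs of the stem gate came from B cells was not tested. Transcripts that mark dendritic cells were at or near 0 in the stem gate, with 0 UMIs of Cd209a, 2 of Xcr1, 2 of Clec9a, 1 of Siglech and 3 of Itgax in 2675 cells. The summed dendritic and macrophage tracers of the stem gate, 168 to 239 CPM, came mainly from Cst3 (161 to 236 CPM).

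Counts per cell differed in form between gates. In the stem gate, 1968 of 2675 cells had no UMI of H2-Aa, H2-Ab1, H2-Eb1 or Cd74, 426 had 1, 159 had 2, 65 had 3 and 57 had at least 4, with 13 in the highest cell. In monocytes, 9.39% of cells had at least 4, and the 10% of cells with the most held 96.1% of these UMIs. In mature B cells 75.4% had at least 4, and no erythroid progenitor did. The corresponding share of UMIs held by the top 10% of cells was 63.5% in the stem gate and 27.2% in mature B cells. Among stem cells with an H2-Aa UMI, 73 of 220 (33.2%) also had one of Cd74, against 234 of 2455 (9.53%) of the others, whose median depth was slightly higher (3252 against 2962 UMIs). In monocytes these shares were 89 of 92 (96.7%) and 139 of 1154 (12.05%).

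The share of cells with an H2-Aa UMI was also read after thinning each cell to 1000 UMIs, which left out 0 cells. It was 3.36% in stem cells (8.22% unthinned), 5.94% in monocytes (7.38%), 41.2% in mature B cells (46.6%) and 25.4% in plasmacytoid dendritic cells (36.9%). In erythroid progenitors, the background reading, it was 0.0546% (0.491%). Median depth per mouse was 2401 to 4076 UMIs in the stem gate, 1109.5 to 1325.5 in mature B cells and 9014.5 to 13831 in erythroid progenitors.

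Between treatments, the clearest difference in the stem gate was a lower level of H2-Aa and Cd74 in late rapamycin mice. H2-Aa measured 43.3 and 42.4 CPM in tamoxifen mice 1 and 2, 30.7 and 46.5 in tamoxifen+rapamycin mice and 12.5 and 13.8 in late rapamycin mice. Both late rapamycin mice lay below all 4 others, with no overlap. Between late rapamycin and tamoxifen the log2 change was −1.69 (SE 0.25, adjusted p = 0.00222, edgeR), with differences within day 1 and day 2 of −1.71 and −1.55 in log2 CPM after adding 1. Tamoxifen+rapamycin exceeded late rapamycin by 1.58 (SE 0.26, adjusted p = 0.00668, edgeR). These 3 contrasts share mice, so the late rapamycin mice enter both.

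Cd74 measured 74.9 and 51.5 CPM in tamoxifen mice, 69.1 and 48.9 in tamoxifen+rapamycin mice and 35.2 and 26.6 in late rapamycin mice. The late rapamycin mice were again the lowest on either day. The log2 change was −1.0 (SE 0.19, adjusted p = 0.0159) against tamoxifen, and tamoxifen+rapamycin exceeded late rapamycin by 0.90 (SE 0.20, adjusted p = 0.0394), both by edgeR. Without the day block, the Cd74 calls were lost (adjusted p = 0.186 and 0.199). The smaller call was also lost without tamoxifen+rapamycin mouse 1 (0.322), mouse 2 (0.18) or late rapamycin mouse 2 (0.0575), and the H2-Aa call against late rapamycin without tamoxifen+rapamycin mouse 2 (0.242).

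**Figure D3:**
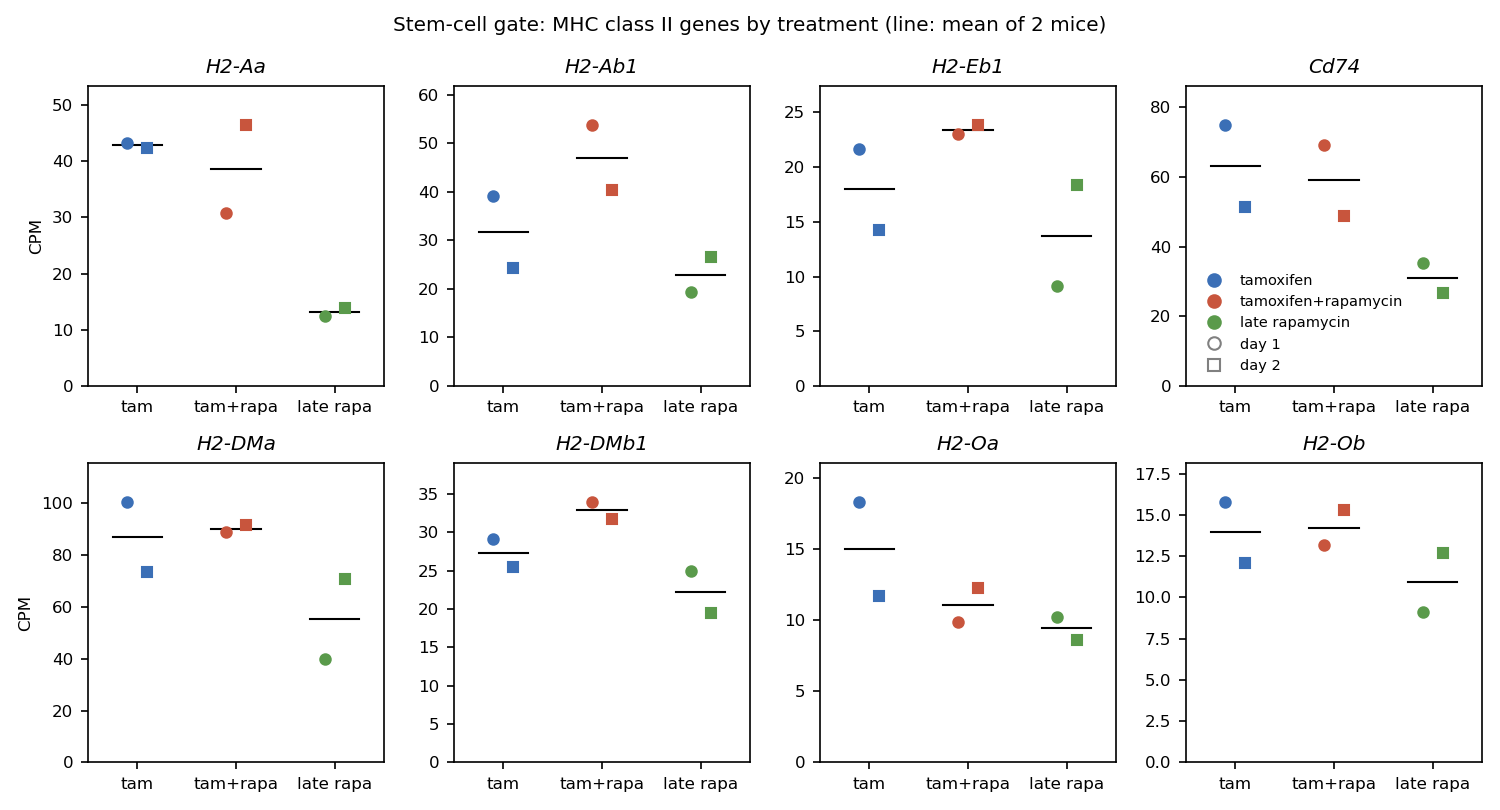
Level (CPM) of the 8 members tested in the stem cell gate, with 1 point per mouse, shaped by processing day, and a bar at the mean of each treatment. Both late rapamycin mice lie below the other 4 mice for H2-Aa (12.5 and 13.8 CPM) and Cd74 (35.2 and 26.6 CPM), while H2-Ab1, H2-Eb1 and H2-Ob overlap between late rapamycin and tamoxifen mice.

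Of the 8 members tested in stem cells (Ciita and H2-DMb2 were too low), 2 were lower in late rapamycin than in tamoxifen mice (background 0.262% of genes called lower). All 8 estimates were below 0, with a median of −0.41 against 0.00 over all genes. Likewise, 2 were higher in tamoxifen+rapamycin than in late rapamycin mice (background 0.392% called higher), with all 8 estimates above 0 and a median of 0.60. Between tamoxifen+rapamycin and tamoxifen edgeR called 0 of 8 (background 0.131% called in either direction), with 1 member, beside 569 of 10702 genes, at an unadjusted p under 0.05. That was H2-Ab1, at 39.1 and 24.2 CPM in tamoxifen, 53.7 and 40.3 in tamoxifen+rapamycin and 19.3 and 26.6 in late rapamycin mice. Its change between tamoxifen and tamoxifen+rapamycin was 0.60 (adjusted p = 0.853, edgeR), and tamoxifen+rapamycin differed from late rapamycin by 0.86 (adjusted p = 0.123, edgeR).

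The remaining members of the stem gate did not pass the test in any contrast. H2-DMa, the DM alpha chain, was at 100.7 and 73.5 CPM in tamoxifen, 88.8 and 91.7 in tamoxifen+rapamycin and 39.8 and 70.7 in late rapamycin mice (−0.50 against tamoxifen, adjusted p = 0.418, edgeR). H2-DMb1 ranged from 19.5 to 34.0 CPM over the mice, H2-Eb1 from 9.09 to 23.8, H2-Oa from 8.61 to 18.3 and H2-Ob from 9.09 to 15.8. Ciita ranged from 3.41 to 5.82 CPM and was lowest in the late rapamycin mice. DESeq2 called 0 members in every contrast; it gave no adjusted p for the 8 members in either contrast with late rapamycin, where its unadjusted p for H2-Aa was 0.000373 and 0.00146 and for Cd74 0.00492 and 0.0126.

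Several other measures of the stem gate moved with the late rapamycin mice. Late rapamycin mouse 2 had the deepest cells (median 4076 UMIs against 2401 to 3368 in the other treatments). The summed stem markers of the gate were 4350 and 5006 CPM in late rapamycin mice against 5223 to 5682 in the others, and Kit was at 243 and 405 CPM against 418 to 489. The part of these differences in the result was not tested. When cells were instead gated after thinning all to 1000 UMIs, an alternative added after seeing the data, H2-Aa measured 39.6 and 43.1 CPM in tamoxifen, 45.5 and 45.9 in tamoxifen+rapamycin and 10.6 and 15.8 in late rapamycin mice. Both H2-Aa calls held there (adjusted p = 0.0056 and 0.00361, edgeR), as did those of Cd74 (0.0276 and 0.0256), and H2-Ab1 was then higher in tamoxifen+rapamycin than in late rapamycin by 1.07 (0.0443).

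Stem cells without any B cell tracer UMI, which left out 16.3% of the gate, gave the same order. H2-Aa stood at 41.2 and 44.9 CPM in tamoxifen, 32.1 and 46.9 in tamoxifen+rapamycin and 10.8 and 15.2 in late rapamycin mice. Cd74 stood at 80.3 and 51.7, 69.2 and 47.6, and 33.8 and 29.4 CPM, and its difference between tamoxifen+rapamycin and late rapamycin no longer passed (adjusted p = 0.118, edgeR).

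The level of H2-Aa also differed with the number of stem markers detected in a cell. A deeper cell can show more markers, and late rapamycin cells were the deepest, so a class may not hold like cells in each treatment. The part of depth was not tested. Among cells past no committed gate, those of tamoxifen mice held 6.87 CPM with 2 markers, 12.6 with 3 and 19.9 with 4, just outside the gate. Just inside, with 5 markers, they held 34.9 CPM, with 6 markers 60.2 and with 7 or more 23.4. The corresponding levels with 4, 5 and 6 markers were 31.5, 35.6 and 54.6 CPM under tamoxifen+rapamycin and 6.69, 9.90 and 19.7 under late rapamycin. Late rapamycin cells were the lowest in each class from 3 markers up, but not with 2 markers, where they held 10.5 CPM against 6.87 and 8.23. In the class of 7 or more, H2-Aa was at 0 in every day 1 mouse. Cells with no stem marker, a mixture that no gate names, held 127, 74.2 and 52.7 CPM. These values describe where the gate was drawn and carry no test.

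**Figure D4:**
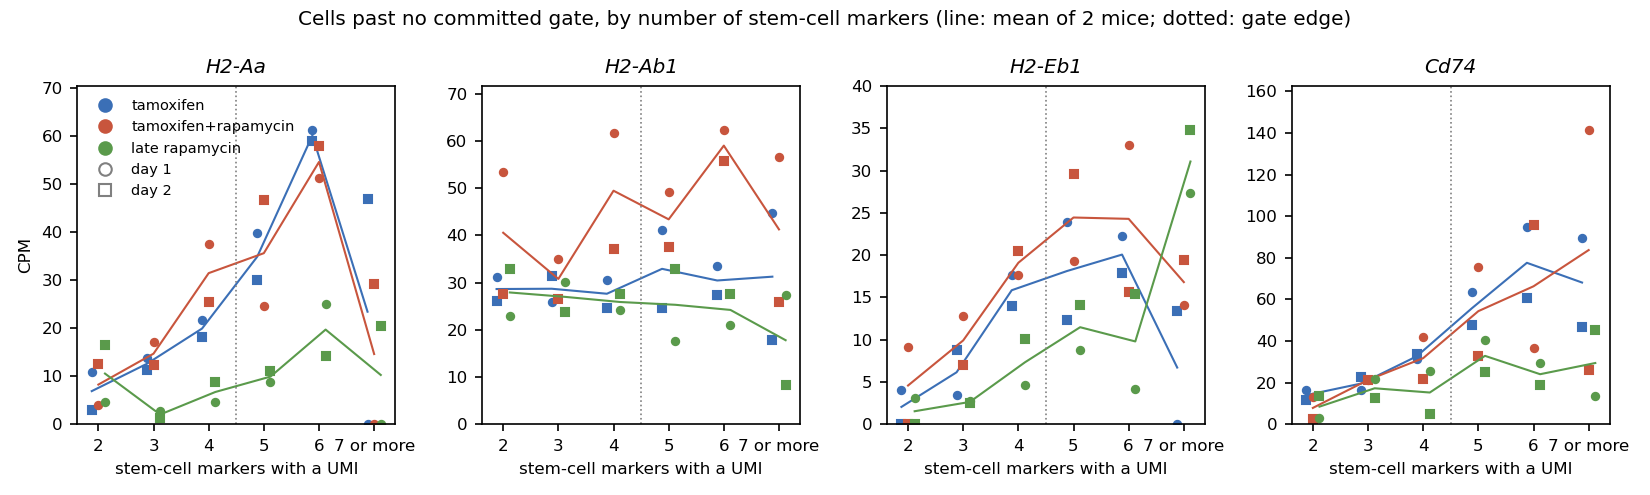
Level (CPM) of H2-Aa, H2-Ab1, H2-Eb1 and Cd74 by the number of stem cell markers detected per cell, with 1 point per mouse, a line through the treatment means and a dotted line at the edge of the gate. H2-Aa has means from 6.87 to 60.2 CPM between 2 and 6 markers in tamoxifen mice and of 19.7 CPM or less in late rapamycin mice.

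In plasmacytoid dendritic cells the order of treatments was another: the tamoxifen+rapamycin mice were lowest. Cd74 measured 849 and 1897 CPM in tamoxifen, 504 and 280 in tamoxifen+rapamycin and 942 and 1316 in late rapamycin mice. H2-Aa measured 304 and 541, 240 and 127, and 362 and 419 CPM in the same order. In each of these genes both tamoxifen+rapamycin mice lay below all 4 other mice. Tamoxifen+rapamycin was below tamoxifen for 4 of 6 members tested (background 0.357% called lower): Cd74 at −1.83 (SE 0.26, adjusted p = 4.62e-08), H2-Eb1 at −1.75 (0.0288), H2-Ab1 at −1.69 (0.00672) and H2-Aa at −1.30 (0.0293), all by edgeR.

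Against late rapamycin, 3 of the 6 were lower (background 0.714% called lower): Cd74 at −1.54 (adjusted p = 7.05e-06), H2-Ab1 at −1.31 (0.0396) and H2-Aa at −1.14 (0.0471), by edgeR. Between late rapamycin and tamoxifen edgeR called 0 of 6 (background 0.0325%), with 0 members, beside 191 of 3080 genes, at an unadjusted p under 0.05. DESeq2 called 0 members in these contrasts, with 4, 0 and 3 at an unadjusted p under 0.05 in tamoxifen+rapamycin against tamoxifen, late rapamycin against tamoxifen and tamoxifen+rapamycin against late rapamycin.

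These calls rest on 236 cells, 28 to 58 per mouse, and mainly on tamoxifen+rapamycin mouse 2. Without it no member passed, with Cd74 at an adjusted p of 0.314 against tamoxifen and 0.83 against late rapamycin (edgeR). Without tamoxifen mouse 2, neither Cd74 nor any of the 3 chains passed against tamoxifen. The H2-Aa and H2-Ab1 calls against late rapamycin were lost without any 1 mouse other than tamoxifen+rapamycin mouse 1. Against tamoxifen, H2-Aa was also lost without either late rapamycin mouse, and H2-Ab1 without tamoxifen mouse 1. H2-Eb1 was also lost there without tamoxifen mouse 1 or tamoxifen+rapamycin mouse 1. In tamoxifen+rapamycin mouse 2 the 28 cells had a median of 3785.5 UMIs, against 1860 to 2518 in the other mice, and the 11 markers of the gate summed to 7666 CPM against 11560 to 13830. Siglech, a surface receptor of plasmacytoid dendritic cells and a marker of the gate, was at 466 CPM there and at 1047 to 1603 elsewhere. By edgeR Siglech was itself called lower under tamoxifen+rapamycin, at −0.92 against tamoxifen (adjusted p = 0.0293) and −1.09 against late rapamycin (0.000921). These were the 2 calls in 39 tests (5.13%) of the dendritic and macrophage tracers. The B cell tracers summed to 670 CPM in this mouse and 798 to 1207 in the others, and the dendritic and macrophage tracers to 1187 against 1665 to 2322. The part of these differences in the result was not tested.

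The difference was not of 1 size over the gate when its cells were split by conventional dendritic markers, pooled over mice and with no test. In cells with none of these markers (36, 36 and 61 cells under tamoxifen, tamoxifen+rapamycin and late rapamycin) H2-Aa measured 171, 191.5 and 392 CPM, H2-Eb1 85.7, 91.6 and 147, H2-Ab1 154, 117 and 233 and Cd74 754, 466 and 1048. H2-Aa and H2-Eb1 were thus not lower under tamoxifen+rapamycin than under tamoxifen in these cells. In cells with at least 1 such marker (33, 23 and 47 cells) H2-Aa measured 883, 143 and 404 CPM, H2-Eb1 547, 51.9 and 206, H2-Ab1 673, 90.8 and 335.5 and Cd74 2608, 220.5 and 1334. There tamoxifen+rapamycin was the lowest for each of the 4 genes.

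Monocytes showed another order again, with the highest values in the tamoxifen+rapamycin mouse of day 2. Cd74 measured 423 and 698 CPM in tamoxifen, 515 and 1082 in tamoxifen+rapamycin and 282 and 596 in late rapamycin mice, and H2-Aa 115 and 180, 188 and 311, and 110 and 182. On each day the tamoxifen+rapamycin mouse was the highest of the 3, and the treatments overlapped across days for Cd74. Of 7 members tested, edgeR called 0 in tamoxifen+rapamycin against tamoxifen (background 0.0363%), late rapamycin against tamoxifen (0.0121%) and tamoxifen+rapamycin against late rapamycin (0.0242%), with 4, 3 and 5 at an unadjusted p under 0.05. Over all 8261 genes tested, edgeR put 247, 533 and 600 under that unadjusted p in the same order. DESeq2 called 0 members, with 1, 0 and 4 at an unadjusted p under 0.05. In tamoxifen+rapamycin against late rapamycin the smallest adjusted p was 0.169, for Cd74 at 0.84 and H2-Ab1 at 0.99, and H2-Eb1 stood at 1.24 with 0.215 (edgeR). Monocytes that carried at least 1 conventional dendritic marker held more Cd74 than those with none in each treatment: 843 against 274 CPM in tamoxifen, 1119 against 578 in tamoxifen+rapamycin and 446 against 333.5 in late rapamycin mice, all pooled over mice.

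In mature B cells no member passed the test, although 9 of 10 had a value below 0 in tamoxifen+rapamycin against tamoxifen (median −0.56, against 0.0064 over all genes tested). Cd74 measured 4600 and 6446 CPM in tamoxifen, 4527 and 5126 in tamoxifen+rapamycin and 5200 and 5573 in late rapamycin mice, so the tamoxifen mice overlapped both other treatments, and tamoxifen+rapamycin lay below late rapamycin by less than the spread of the tamoxifen mice. H2-Aa was lowest in the tamoxifen+rapamycin mice, at 680 and 615 CPM against 807 and 1259 in tamoxifen and 849 and 1055 in late rapamycin mice (−0.73 against tamoxifen, adjusted p = 0.0524, edgeR). Of 10 members tested, edgeR called 0 in tamoxifen+rapamycin against tamoxifen (background 0.223%), late rapamycin against tamoxifen (0.0202%) and tamoxifen+rapamycin against late rapamycin (0.486%), with 6, 0 and 5 at an unadjusted p under 0.05. Over all 4942 genes tested, edgeR put 313, 191 and 341 under that unadjusted p in the same order. DESeq2 called 0 members, with 1, 0 and 1 at an unadjusted p under 0.05. Ciita was at 125 and 232 CPM in tamoxifen, 64.4 and 123 in tamoxifen+rapamycin and 139 and 238 in late rapamycin mice, lowest under tamoxifen+rapamycin on either day but not past the test (adjusted p = 0.165 and 0.142).

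**Figure D5:**
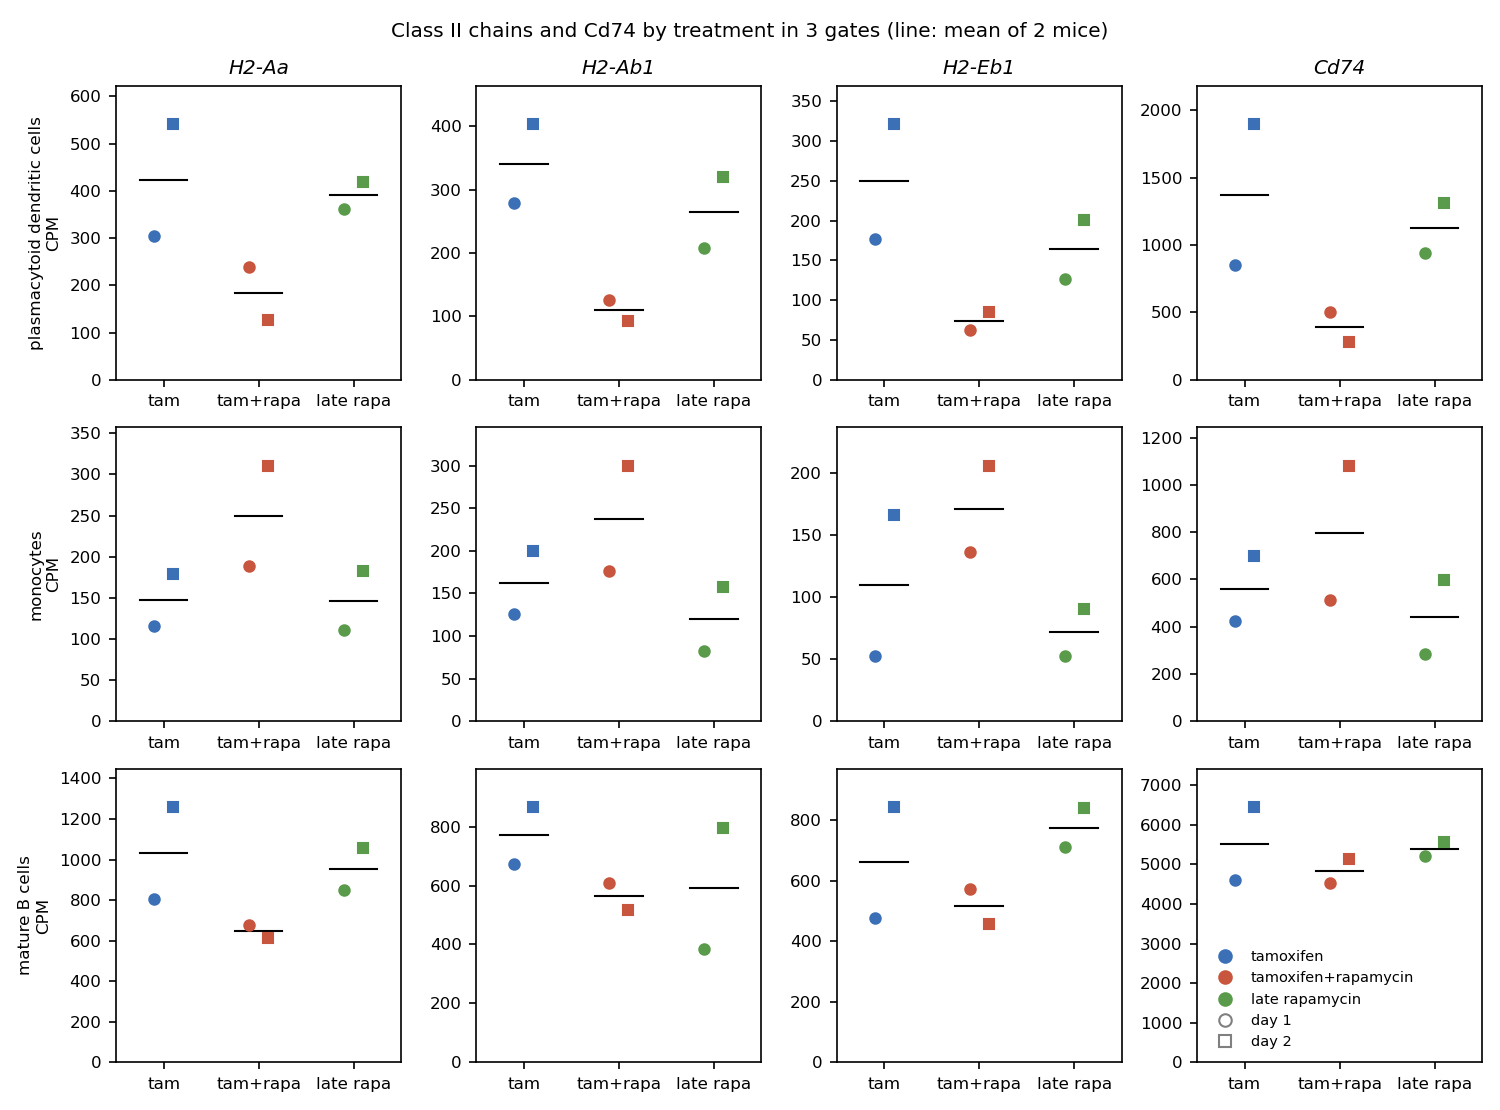
Level (CPM) of H2-Aa, H2-Ab1, H2-Eb1 and Cd74 in plasmacytoid dendritic cells, monocytes and mature B cells, 1 point per mouse by treatment and day, with a bar at the mean. In plasmacytoid dendritic cells both tamoxifen+rapamycin mice are lowest (Cd74 504 and 280 CPM), in monocytes they are the highest of their day, and in mature B cells the Cd74 values of tamoxifen mice (4600 and 6446 CPM) overlap both other treatments.

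The treatment contrasts of the gates were also compared directly, in 1 edgeR fit of both gates with adjusted p over all genes, a test added after seeing the data. Late rapamycin against tamoxifen was lower in stem cells than in mature B cells for H2-Aa (difference of log2 changes −1.55, adjusted p = 0.00222) and Cd74 (0.00128), 2 of 10 members compared, against 0.0808% of genes called. Between stem cells and plasmacytoid dendritic cells, tamoxifen+rapamycin against tamoxifen differed for Cd74 and H2-Ab1 (background 0.0375%), and tamoxifen+rapamycin against late rapamycin for these and H2-Aa (0.5%). Between monocytes and plasmacytoid dendritic cells, Cd74, H2-Ab1 and H2-Eb1 differed in both contrasts (0.0481% and 0.0962%), and H2-Aa in that with late rapamycin. Between stem cells and mature B cells, tamoxifen+rapamycin against late rapamycin differed for H2-Aa, Cd74 and H2-DMb1 (0.496%). Late rapamycin against tamoxifen in H2-Aa did not differ past the threshold between stem cells and monocytes (−1.79, adjusted p = 0.0812) or plasmacytoid dendritic cells (−1.57, adjusted p = 0.0713), and by edgeR 0 of 9 members differed between stem cells and Flt3 progenitors, with 0 at an unadjusted p under 0.05. On simulated counts of monocytes and stem cells this test recovered only 30 of 101 genes changed by 1, so a missed call says little. Without late rapamycin mouse 2, every call between stem cells and mature B cells was lost. Those of late rapamycin against tamoxifen were also lost without tamoxifen mouse 1 or late rapamycin mouse 1. In tamoxifen+rapamycin against late rapamycin, Cd74 was also lost without tamoxifen+rapamycin mouse 1, and H2-DMb1 without mouse 2 of that treatment. Without tamoxifen+rapamycin mouse 2, the calls involving plasmacytoid dendritic cells were lost, except that of Cd74 between them and stem cells against late rapamycin.

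In Flt3 progenitors all 10 members were tested and edgeR called 0 in tamoxifen+rapamycin against tamoxifen (background 0.0178%), late rapamycin against tamoxifen (0.107%) and tamoxifen+rapamycin against late rapamycin (0.16%). Members with an unadjusted p under 0.05 by edgeR numbered 1, 4 and 7, beside 655, 988 and 1066 of all 11239 genes. DESeq2 called 0 members, with 0, 2 and 3 under that unadjusted p. H2-Aa stood at 15.5 and 11.8 CPM in tamoxifen, 12.3 and 13.3 in tamoxifen+rapamycin and 3.38 and 7.55 in late rapamycin mice, the lowest on both days as in the stem gate (−1.37 against tamoxifen, adjusted p = 0.303, edgeR). In B cell precursors 6 members were tested and 0 called by edgeR (background 0.204%, 0% and 0.0719% in the same order). Of these, 1, 3 and 3 had an unadjusted p under 0.05, beside 555, 363 and 396 of all 8341 genes. DESeq2 called 0 members, with 0, 2 and 2 under that unadjusted p. Cd74 there measured 70.2 and 87.0 CPM in tamoxifen, 38.7 and 156.5 in tamoxifen+rapamycin and 16.8 and 45.1 in late rapamycin mice, and late rapamycin mouse 1 had only 52 cells.

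Few members could be tested in the lineages low in class II, and edgeR and DESeq2 called 0 in each. The contrasts stand in the order used above. Neutrophil progenitors had 5 members tested (background 0%, 0.0688% and 0.0491%), with 0, 0 and 2 at an unadjusted p under 0.05 by edgeR and 0 by DESeq2. Erythroid progenitors had 5 (background 0.976%, 2.06% and 0.567%), with 0, 0 and 1 by edgeR and 0 by DESeq2, which gave no adjusted p for 3 of the 5 in late rapamycin against tamoxifen. Neutrophils (background 0% in each contrast) and megakaryocyte progenitors (0.0451%, 0.436% and 0.556%) had 1 member tested each, with 0 by either tool. Over all genes in neutrophil progenitors, edgeR put 230, 1072 and 919 of 10179 at an unadjusted p under 0.05. In erythroid progenitors it put 1132, 1514 and 1147 of 10754 there.

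Other genes of the pathway were read in lists of named genes, written with earlier results of these data known. Over all genes, the 10 gates and 3 contrasts gave 754 calls in 246567 tests (0.306%). That share is the background for the adjusted calls here, and not for the counts at an unadjusted p. In the lists, edgeR called 0 of 171 tests of the factors that bind class II promoters (Rfx5, Rfxank and partners), 0 of 108 of the factors that start Ciita, 0 of 111 of the interferon gamma receptor and its kinases and 0 of 48 of co-stimulation genes. Unadjusted values under 0.05 numbered 2, 15, 12 and 2 in these lists, and DESeq2 also called 0, with 0, 5, 2 and 0 at an unadjusted p under 0.05. Spi1, a factor of the myeloid lineage on the list of factors that start Ciita, was at 91.0 to 110.7 CPM in the stem gate. Irf8, needed for dendritic cells, was at 3.67 to 6.92 CPM there against 1425 to 2419 in plasmacytoid dendritic cells. MHC class I genes gave 2 calls in 351 tests (0.57%), both higher and both in erythroid progenitors: H2-Q7, a class I heavy chain, by 1.11 (adjusted p = 0.00957) under tamoxifen+rapamycin and Pdia3, of the peptide loading complex, by 0.31 (0.00788) under late rapamycin, each against tamoxifen by edgeR. Of the interferon gamma inducible genes, 1 of 102 tests (0.98%) was called, Igtp in erythroid progenitors under tamoxifen+rapamycin against tamoxifen (1.04, adjusted p = 0.0495, edgeR). Of the B cell tracers, 5 of 123 tests (4.07%) were called by edgeR, all lower under tamoxifen+rapamycin. In plasmacytoid dendritic cells this was Iglc3, against tamoxifen (−2.38, adjusted p = 0.0238) and late rapamycin (−2.60, 0.000819). In B cell precursors it was Iglc3 against late rapamycin (−2.70, 0.0495). In mature B cells it was Iglc2, against tamoxifen (−0.78, 0.0148) and late rapamycin (−1.09, 0.000289).

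Endosomal genes of peptide handling were called in 11 of 216 tests (5.09%), 9 of them Ctse, the endosomal protease cathepsin E. These calls repeat the same genes in tests that share mice, so the share says nothing about the list as a whole. In the stem gate Ctse stood at 61.6 and 80.0 CPM in tamoxifen, 173 and 164 in tamoxifen+rapamycin and 55.7 and 61.8 in late rapamycin mice, higher under tamoxifen+rapamycin by 1.21 (adjusted p = 0.000497) against tamoxifen and by 1.5 (7.01e-05) against late rapamycin (edgeR). The other calls were of March1, a ubiquitin ligase that removes class II from the surface, in mature B cells. It stood at 219 and 480 CPM in tamoxifen, 136 and 178 in tamoxifen+rapamycin and 339 and 349 in late rapamycin mice, lower under tamoxifen+rapamycin by edgeR, at −1.24 (adjusted p = 0.00961) against tamoxifen and −1.06 (0.0464) against late rapamycin.

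Across the 10 tested gates in 6 mice (60 points, which share mice, runs and depth), the members' log2 CPM after adding 1 followed each other to different degrees. Pearson's r with the mean of the other members was 0.960 for H2-Eb1, 0.95 for H2-Aa, 0.949 for Cd74, 0.914 for Ciita and 0.902 for H2-Ab1. It was 0.851 for H2-Oa, 0.752 for H2-DMb1, 0.748 for H2-Ob, 0.747 for H2-DMb2 and 0.689 for H2-DMa. Among 11526 other genes, the patterns most like the members' mean were those of Arhgap17 (r = 0.943), Btla (0.934), Lrch1 (0.913), Zup1 (0.913) and Slc9a7 (0.909), given as a description with no test.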

How the data were processed

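The members, gene lists and comparisons were chosen with earlier results of these data known. Raw UMI counts per gene and hashtag were deposited by the authors as 1 matrix per day. Counting used Cell Ranger, version 7.0.0 with mm10 per the submitters' processing notes but 8.0.1 per the file headers, and whether intronic reads were counted is not given in the sources used here. Cells with exactly 1 hashtag above the 0.999 quantile of its background, 500 or more genes, 1000 or more UMIs and a mitochondrial share of no more than 10% were kept. The expected number of doublets within a mouse was removed by the share of known multiplets among 50 neighbours (30 principal components of 2000 variable genes). The matrices held 25058 and 21409 barcodes with 113535036 and 115505329 gene UMIs, of which 17896 and 16707 cells were kept. Computing used Python 3.11.15, scanpy 1.11.5, scikit-learn 1.9.0 and scipy 1.17.1.

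UMI counts were summed per mouse and gate where every mouse had at least 20 cells, and tested with edgeR 4.0.16 (quasi-likelihood, TMM, filterByExpr, two-sided) in R 4.3.3. Day was a block for treatments and mouse a block for gates. P values were adjusted by Benjamini-Hochberg over all genes tested, and DESeq2 1.42.0 was the alternative tool. P values measure the spread over 2 mice per treatment. The pairing of mice comes from the labels, which number the replicates by processing day. Day differences across genes correlated at 0.026 to 0.098 between treatments in the stem gate. All 10 members are named in every gate, list genes are named where they passed, and the 5 most similar genes were taken by correlation. Differences of a treatment contrast between gates were fitted after seeing the data. On simulated counts, the stem gate contrast of late rapamycin and tamoxifen recovered 86 of 97 genes changed by 1 on the log2 scale and 103 of 103 changed by 2, with 11 false calls among 10638 genes. The difference of this contrast between monocytes and stem cells recovered 30 of 101 genes changed by 1 and 97 of 99 changed by 2. Only genes well counted in every mouse were changed, with 1 common spread for all genes. Members with few UMIs lie outside this setting.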

Additional observations from a re-analysis of the deposited data

Results flagged for a closer look

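Treatment contrasts of 17 member and gate pairs differed between gates by a direct test, the difference of the contrasts in 1 edgeR fit of both gates with adjusted p over all genes. Values are differences of log2 changes. Late rapamycin minus tamoxifen was lower in stem cells than in mature B cells for H2-Aa (−1.55, adjusted p = 0.00222) and for Cd74 (−1.0, 0.00128), against a background of 0.0808% of genes called. Each of these calls was lost without tamoxifen mouse 1, late rapamycin mouse 1 or late rapamycin mouse 2. Tamoxifen+rapamycin minus late rapamycin was higher in stem cells than in mature B cells for H2-Aa (2.19, 8.76e-08), Cd74 (1.11, 3.79e-05) and H2-DMb1 (2.52, 0.00979; background 0.496%). All 3 calls were lost without late rapamycin mouse 2, that of Cd74 also without tamoxifen+rapamycin mouse 1 and that of H2-DMb1 also without tamoxifen+rapamycin mouse 2.

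Stem cells and plasmacytoid dendritic cells differed in tamoxifen+rapamycin minus tamoxifen for Cd74 (1.84, adjusted p = 7.73e-05) and H2-Ab1 (2.34, 0.00158; background 0.0375%). They differed in tamoxifen+rapamycin minus late rapamycin for Cd74 (2.68, 5.53e-11), H2-Aa (2.82, 1.15e-06) and H2-Ab1 (2.38, 0.000506; background 0.5%). Without tamoxifen+rapamycin mouse 2 all of these calls were lost except that of Cd74 against late rapamycin, which held without any 1 of the 6 mice. The calls against tamoxifen were also lost without tamoxifen mouse 2, and that of H2-Ab1 against late rapamycin without late rapamycin mouse 2.

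Monocytes and plasmacytoid dendritic cells differed in tamoxifen+rapamycin minus tamoxifen for Cd74 (2.24, adjusted p = 0.000592), H2-Ab1 (2.22, 0.0333) and H2-Eb1 (2.43, 0.0333; background 0.0481%). They differed in tamoxifen+rapamycin minus late rapamycin for Cd74 (2.40, 6.46e-05), H2-Aa (1.90, 0.0454), H2-Ab1 (2.29, 0.0134) and H2-Eb1 (2.39, 0.0306; background 0.0962%). Without tamoxifen+rapamycin mouse 2 all 7 of these calls were lost. The 3 against tamoxifen were also lost without tamoxifen mouse 2, and the 4 against late rapamycin without late rapamycin mouse 1; leaving out other mice removed further calls of the 3 chains but not of Cd74.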

How the results depend on the processing

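With 2 mice per treatment and 28 to 58 plasmacytoid dendritic cells per mouse, a p that misses the threshold says little about a low gene. Counts of members called in either direction follow. The cause of each change was not tested. Labels pair mice by processing day; with no replicate block, stem cells had 1 (late rapamycin against tamoxifen) and 1 (tamoxifen+rapamycin against late rapamycin) in place of 2 and 2, and plasmacytoid dendritic cells 2 (tamoxifen+rapamycin against tamoxifen) and 1 (against late rapamycin) in place of 4 and 3. With 1 more marker per gate, tamoxifen+rapamycin against late rapamycin gave 0 in stem cells and 1 in Flt3 progenitors (0). Without cells holding a B cell tracer it gave 1 in stem cells and 4 in monocytes (0). With no low-count filter, late rapamycin against tamoxifen gave 3 in Flt3 progenitors and 1 in B cell precursors, tamoxifen+rapamycin against late rapamycin 3 and 1 in these, 1 in mature B cells, 3 in monocytes and 1 in plasmacytoid dendritic cells, and tamoxifen+rapamycin against tamoxifen 1 in mature B cells and 2 in plasmacytoid dendritic cells; monocytes and plasmacytoid dendritic cells then had 10 members against stem cells in place of 6, since more were tested. With doublets kept, mature B cells gave 1 and 2, and plasmacytoid dendritic cells 1 and 1, in tamoxifen+rapamycin against tamoxifen and late rapamycin. DESeq2 gave 0 and 0 in plasmacytoid dendritic cells; over all genes in the stem gate it called 2, 10 and 13 where edgeR called 14, 50 and 76.

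Leaving out each mouse, counts ran from 2 to 3 in stem cells for late rapamycin against tamoxifen and from 0 to 4 for tamoxifen+rapamycin against late rapamycin. In Flt3 progenitors they ran from 0 to 2 and 0 to 3, in B cell precursors 0 to 1 and 0 to 2, in monocytes 0 to 2 and 0 to 4 (0 to 1 for tamoxifen+rapamycin against tamoxifen), in mature B cells 0 to 3 in both contrasts of tamoxifen+rapamycin, in plasmacytoid dendritic cells 0 to 3 in both, and in neutrophil progenitors 0 to 3 in both contrasts of late rapamycin. B cell precursors, monocytes and plasmacytoid dendritic cells each had 7 members against stem cells without late rapamycin mouse 1. Only uncalled values reversed: in mature B cells, tamoxifen+rapamycin against tamoxifen was 0.00764 for H2-Ab1, 0.084 for H2-Eb1 and 0.023 for H2-DMb1 without tamoxifen+rapamycin mouse 2 (the lowest values were −0.84, −0.80 and −2.18, without mouse 1 of that treatment), and 0.11 for H2-Eb1 without tamoxifen mouse 2, and in monocytes −0.18 for H2-Ab1 and −0.12 for H2-Eb1 with 1 more marker. Only 11 of the 59 named results were called. Of 783 alternative values for the 59, 652 kept direction and side of the threshold, 53 lost the call, 72 gained one and 6 reversed. A call could be lost only by those 11 results, so the 652 include results that were never called. The lower H2-Aa of late rapamycin against tamoxifen in stem cells passed in 14 of 14 alternatives (−2.0 to −1.53, adjusted p at most 0.0165). Plasmacytoid dendritic cells could not be fitted with 1 more marker or without tracer cells. DESeq2 gave no adjusted p for members in stem cells and most in Flt3 progenitors in contrasts with late rapamycin. Those DESeq2 results are left out of the 783 values and of the 14 alternatives for H2-Aa.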

Other observations

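In cells past no gate lay 13.3% of all Cd74 UMIs and 44.7% of those of H2-DMb1, the lowest and the highest share among the members; these cells were 38.6% of all cells and entered no comparison. Mature B cells held 2.09% of the H2-DMa UMIs, against 51.4% of those of Cd74.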
